A study of Mus musculus with 14 samples.

Results

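LATS1 and LATS2 are related kinases at the end of the Hippo pathway. They phosphorylate the coactivators YAP and TAZ and so keep them out of the nucleus, where YAP and TAZ would otherwise drive transcription through the TEAD factors. The pathway is known for restraining growth in many epithelia, and LATS2 is also known to take part in the p53 response. What the loss of one kinase has in common with the loss of the other was asked by joining both experiments of the study, so that all 14 of its 14 tumors were used, 8 CKO tumors against 6 WT tumors with the experiment as a blocking factor.

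The tumors came from MMTV-PyMT mice, in which the polyomavirus middle T antigen is driven in the mammary epithelium by the MMTV promoter and gives rise to mammary tumors. One experiment held 4 *Lats1*-CKO and 3 WT-PyMT tumors, and the other held 4 *Lats2*-CKO and 3 WT-PyMT tumors. Each tumor is named by its genotype and a number in the labels. P-values measure the spread between these tumors. In the CKO mice an MMTV-driven Cre removed exon 4 of *Lats1* or exon 5 of *Lats2*. The WT-PyMT tumors, described as nondeleted littermate controls, carried PyMT but not the deletion. Whether those controls carried the Cre transgene is not given in the sources used here, so Cre and the loss of a kinase cannot be told apart. Mice of the study were compared at about 3 months of age, although the labels give no age for the single libraries. By the labels 4 WT tumors were adenomas and 2 carcinomas, against 2 adenomas and 6 carcinomas among the CKO tumors, 1 of them adenosquamous.

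RNA was measured as read counts per gene, with library totals of 18593864 to 31909282 counts, and 17232 genes were found in both tables. Levels are given below as CPM (counts scaled to a common library size after TMM, which corrects for library composition), and differences as log2 fold changes of CKO against WT with their standard errors. A gene was called where the p-value of edgeR's quasi-likelihood test, adjusted by Benjamini-Hochberg over all genes, was under 0.05.

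The targeted genes were read first, as a check of the labels. *Lats1* lay between 32.1 and 37.3 CPM in the 4 *Lats1*-CKO tumors, against 102 to 124 CPM in their WT controls, 107 to 153 CPM in the WT controls of the other experiment and 140 to 148 CPM in the *Lats2*-CKO tumors. *Lats2* lay at 8.49, 11 and 16.4 CPM in 3 *Lats2*-CKO tumors, but at 33.7 CPM in the library labelled *Lats2*-CKO 1, within the 23.8 to 55.9 CPM of the WT controls of that experiment. That library therefore goes against its label by this measure, and results that it moves far are given below also without it. In the *Lats1* experiment *Lats2* was at 28.6 to 38.2 CPM in the CKO tumors and 19.5 to 29.4 CPM in the controls. The counts cover whole genes, so reads from the exons that remain are included. Neither kinase gene was called in the joint comparison, as *Lats1* had a log2 fold change of -0.84 ± 0.28 (adjusted p = 0.185) and *Lats2* one of -0.30 ± 0.37 (adjusted p = 0.745).

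One gene was called in the joint comparison, the agouti gene *a*, which encodes a secreted antagonist of the melanocortin 1 receptor and is best known for yellow hair pigment. This is 0.00580% of the genes tested. *Agouti* was at 258, 346, 94.7 and 296 CPM in the 4 *Lats1*-CKO tumors, and at 0.0767, 0.122 and 0 CPM in their controls. In the *Lats2* experiment it was at 787, 453 and 330 CPM in 3 CKO tumors, at 0.225 CPM in the library labelled *Lats2*-CKO 1, and at 0.178, 0.261 and 0.435 CPM in the controls. Thus 7 CKO tumors carried 1886 to 16581 reads of a gene that had at most 10 reads in any WT tumor, while the remaining CKO library stood among the WT tumors, as it did for *Lats2* itself. The log2 fold change was 10.86 ± 1.39 (edgeR, adjusted p = 0.0422), with 11.76 ± 0.81 in the *Lats1* experiment and 10.41 ± 2.42 in the *Lats2* experiment, and these did not differ by the test of the difference (adjusted p = 0.934). Without the library labelled *Lats2*-CKO 1 the log2 fold change was 11.13 (adjusted p = 1.15e-06). Leaving out 1 library at a time, the call was kept without *Lats1*-CKO 27, WT-PyMT 1 or *Lats2*-CKO 1 and lost without any 1 of the other 11 libraries (adjusted p = 0.0548 to 0.187), with a log2 fold change of 10.52 to 11.19 throughout. The call was also lost under limma voom (adjusted p = 0.303), in carcinomas only (0.997) and with a covariate for histology (0.0706), for adipocyte markers (0.147) or for lymphocyte markers (0.138), while DESeq2 gave 4.79e-31. The gene lies on chromosome 2 at 154950599 to 155051012 (GRCm38.p6).

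*Cntn4*, a neuronal cell adhesion molecule of the contactin family, followed the same libraries. It was at 4.44, 6.49, 1.61 and 4.78 CPM in the *Lats1*-CKO tumors and at 0 in all 3 of their controls. The *Lats2*-CKO tumors held 7.4, 18.7 and 13.9 CPM, with 0 in the library labelled *Lats2*-CKO 1, against 0, 0.0372 and 0.13 CPM in the controls. Its fitted log2 fold change of 7.96 ± 1.30 did not pass the test (adjusted p = 0.119) and depends on the prior count because the controls are near 0. DESeq2 called it in the same design (adjusted p = 2.87e-08), and edgeR called it where *Lats2*-CKO 1, alone or with WT-PyMT 14, or *Lats1*-CKO 27 was left out.

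**Figure D1:**
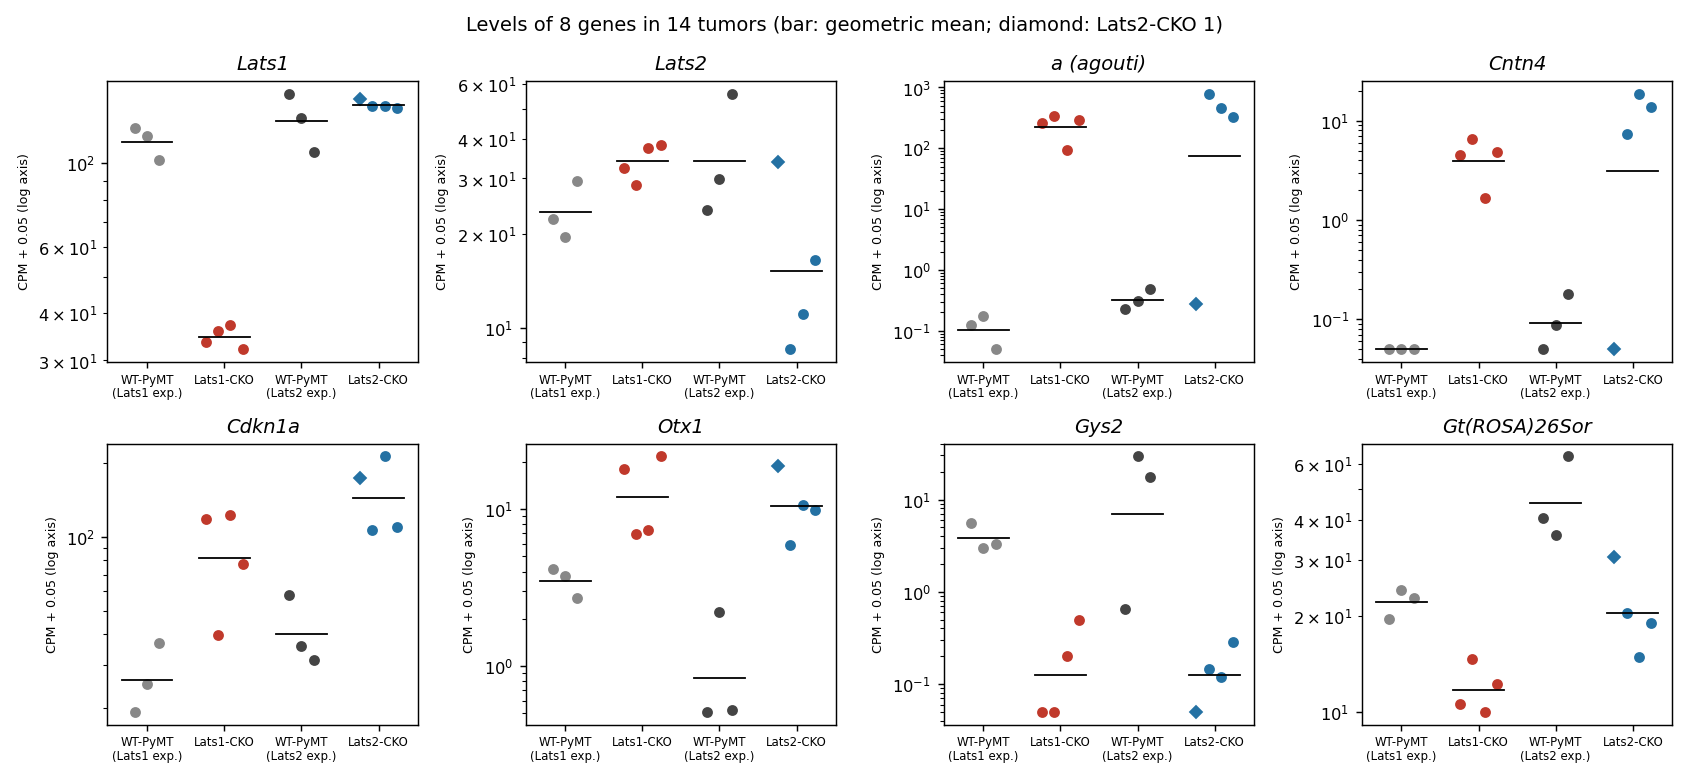
Level of 8 genes in each of the 14 tumors, in CPM + 0.05 on a log axis, by group, with 1 point per tumor, a bar at the geometric mean and a diamond for *Lats2*-CKO 1. *Agouti* is at 94.7 to 787 CPM in 7 CKO tumors and at most 0.435 CPM in all WT tumors, with *Lats2*-CKO 1 at 0.225 CPM.

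No gene was called as lower. With no adjustment, at p under 0.05, CKO tumors had higher levels of 970 genes (5.63% of those tested) and lower levels of 1672 (9.70%). DESeq2, the tool used in the study, called 195 genes higher and 358 lower in the same design, and 552 of these 553 had an unadjusted p under 0.05 with the same sign in edgeR. None of the genes described from here on was called by edgeR in the joint comparison, whereas DESeq2 called 68 of the 87 genes followed through all alternatives. Of all genes, 10 were higher in every CKO tumor than in every WT tumor (0.0580%), and 24 were lower in every CKO tumor (0.139%).

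The experiments share no tumor, so each can be read alone. The *Lats1* experiment had 831 higher and 1148 lower genes by unadjusted p, with 4 genes called. These were *agouti*, higher, and *Lats1*, the Src-family kinase gene *Lyn* and the TEAD factor gene *Tead2*, lower. In the *Lats2* experiment 208 genes were higher and 1025 lower at that level, and edgeR called 0. In both experiments at once, with the same sign, 44 genes were higher (0.255%) and 271 lower (1.57%), while 8 passed with opposite signs. The larger of both p-values, adjusted over all genes, was under 0.05 for 0 genes. DESeq2 run in each experiment gave 98 and 212 genes with the same sign at the unadjusted level. Across all genes 59.7% had the same sign in both experiments.

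**Figure D2:**
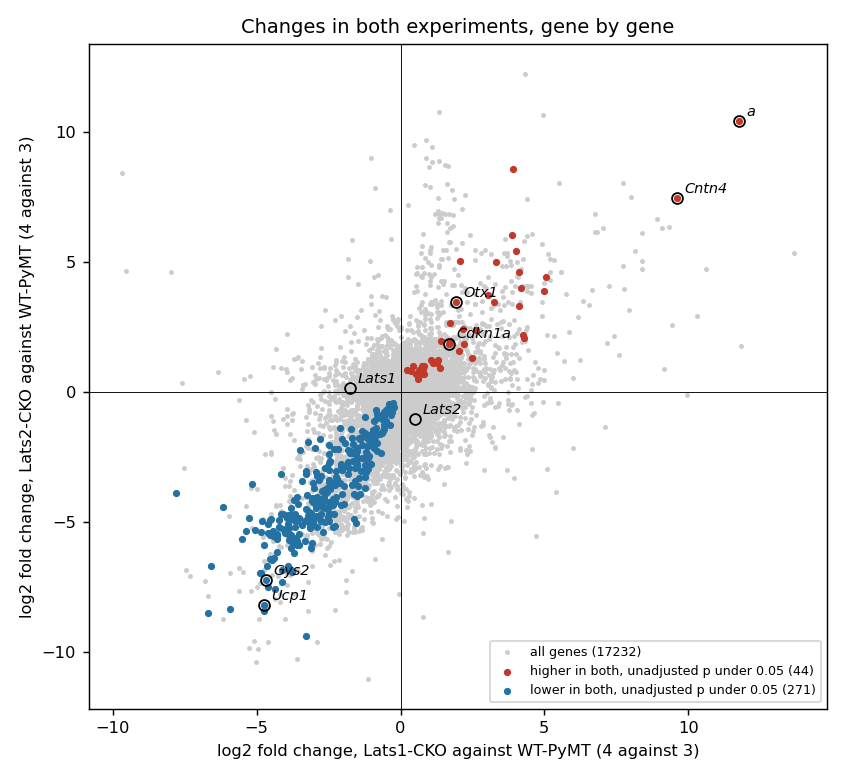
Log2 fold change of each of 17232 genes in the *Lats1* experiment (x axis) and in the *Lats2* experiment (y axis), 4 CKO against 3 WT tumors each. Red points are the 44 genes higher and blue points the 271 genes lower in both at an unadjusted p under 0.05; black rings mark the named genes, *agouti* farthest out among the red points.

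*Lats1* was the one named gene whose response to the 2 deletions differed after adjustment, with lower levels where its own exon was deleted (difference of log2 fold changes -1.85, adjusted p = 0.00195). *Tead2* was at 55.8 to 74.5 CPM in the *Lats1*-CKO tumors against 176 to 233 CPM in their controls, whereas in the *Lats2* experiment the CKO tumors held 98.2 to 273 CPM and the controls 61.6 to 308 CPM. *Lyn* was at 36.4 to 48.1 CPM against 92.6 to 103 CPM in the *Lats1* experiment, and at 44.3 to 129 CPM against 89.4 to 135 CPM in the other. For both genes the groups were apart in one experiment and overlapped in the other, but the difference between the experiments was not past the adjusted threshold (adjusted p = 0.913 each).

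The gene with the smallest joint p after *agouti* was *Cdkn1a*, the gene of the CDK inhibitor p21 and a classic p53 target. It was at 39.9 to 122 CPM in the *Lats1*-CKO tumors against 19.3 to 37 CPM in their controls, and at 106 to 212 CPM in the *Lats2*-CKO tumors against 31.5 to 57.9 CPM. Within each experiment the groups did not overlap, and *Lats2*-CKO 1, at 173 CPM, stood with the other CKO tumors. The log2 fold change was 1.78 ± 0.28 (adjusted p = 0.119), with 1.69 in the *Lats1* and 1.85 in the *Lats2* experiment, with an unadjusted p of 0.00618 in carcinomas only. DESeq2 (adjusted p = 1.09e-06) and limma voom (0.0444) called *Cdkn1a*, as did edgeR without *Lats1*-CKO 27 or without WT-PyMT 1.

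Of 20 measured p53 targets 7 were higher at an unadjusted p under 0.05 and 0 lower, against 5.63% and 9.70% of all genes. The list median log2 fold change was 0.30 against 0.00 over all genes. Of the 7 higher targets *Cdkn1a*, *Eda2r* and *Sesn2* passed in both experiments, where 0.255% of all genes were higher. *Eda2r*, a death receptor of the TNF receptor family, averaged 5.6 ± 2.86 CPM (SD, n = 4) in the *Lats1*-CKO tumors against 2.08 ± 0.446 CPM (n = 3), and 10.6 ± 9.21 CPM (n = 4) in the *Lats2*-CKO tumors against 2.72 ± 0.854 CPM (n = 3). *Sesn2*, a stress-induced inhibitor of mTORC1 signalling, was at 21.8 to 32.7 CPM in the 8 CKO tumors and 12 to 22.4 CPM in the 6 WT tumors, a log2 fold change of 0.58 ± 0.15 (adjusted p = 0.158). *Zmat3*, an RNA-binding p53 target, was at 33.1 to 90.7 CPM against 33.8 to 39.4 CPM, with most CKO tumors above the WT range. The count of higher p53 targets was 9 without WT-PyMT 14 and WT-PyMT 22 (633 of all genes), 7 without *Lats2*-CKO 1 (617), 4 in carcinomas only (294) and 3 with the mean of adipocyte markers as a covariate (342). *Cdkn2a*, which encodes p16 and p19ARF and was picked after its values were seen, had a median of 4.53 CPM in the CKO tumors (0.142 to 22.6) and 0.726 CPM in the WT tumors (0.269 to 1.54), a log2 fold change of 3.38 ± 0.89 (adjusted p = 0.158).

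Among the YAP/TAZ targets, 5 of 24 were higher at an unadjusted p under 0.05 and 1 was lower, against 5.63% and 9.70% of all genes. The list median was 0.27. *Ctgf*, a matricellular protein gene and one of the best known YAP targets, was the 1 member that passed in both experiments. It was at 64.2, 90.7, 277 and 191 CPM in the *Lats1*-CKO tumors against 54.2 to 74.1 CPM, and at 192, 67.3, 89.2 and 158 CPM in the *Lats2*-CKO tumors against 30.7 to 75.8 CPM. The log2 fold change was 1.20 ± 0.35 (adjusted p = 0.158), the groups overlapping in both experiments at the low end of the CKO tumors. *Cyr61*, its relative, was at 125 to 203 CPM against 73.3 to 95 CPM in the *Lats1* experiment, where the groups were apart, and at 53.3 to 220 CPM against 22.3 to 83.9 CPM in the *Lats2* experiment, where they overlapped. Its joint log2 fold change was 1.03 ± 0.34, and 0.71 ± 0.28 without *Lats2*-CKO 1, which held the 220 CPM. *Arhgef17*, a guanine nucleotide exchange factor gene, had 0.76 ± 0.24, and *Ajuba*, a LIM protein gene that can inhibit LATS kinases, had 0.72 ± 0.24, adjusted p = 0.172 and 0.186.

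Of the coactivator and TEAD genes, *Tead1* had a log2 fold change of 0.72 ± 0.20 and *Tead4* of 0.83 ± 0.37, while *Tead2* had -0.90 ± 0.38. That of *Tead4* was 0.64 ± 0.35 without *Lats2*-CKO 1 (edgeR, unadjusted p = 0.093). *Tead1* was at 67.4 to 133 CPM in the 8 CKO tumors and 28.6 to 78.7 CPM in the 6 WT tumors. Of 23 Hippo kinases and adaptors 1 was higher and 2 were lower by unadjusted p, which is no larger share than among all genes. The lower ones were *Lats1* itself and *Taok3*, a kinase upstream of the pathway, at -0.60 ± 0.20. *Taok3* was at 64.7 CPM in WT-PyMT 14, 21.7 to 37.1 CPM in the other WT tumors and 16.6 to 29.7 CPM in the CKO tumors. Its log2 fold change was -0.21 without WT-PyMT 14 and 22 (edgeR, unadjusted p = 0.102) and -0.20 in carcinomas only (0.308).

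TEAD factors bind the motif GGAATG, read here on either strand (CATTCC on the other) in 300 bases around each RefSeq start site, with 250 of them upstream. The motif was in at least 1 promoter of 7 of 18 YAP/TAZ targets with a promoter in the table (38.9%), against 16.6% of all genes of the table and 15.0% of the genes tested. Among genes with an unadjusted joint p under 0.05 it was in 18.2% of the higher and 16.1% of the lower ones, and among genes past the test in both experiments in 18.8% and 16.5%, all near the share over all genes. The promoters of *agouti*, *Cntn4* and *Cdkn1a* in the table did not hold these letters upstream of the start. Shown here are stretches of 100 bases that hold the motif, upstream of a RefSeq start of 2 YAP/TAZ targets from the list and of *Tpm1*, an actin-binding tropomyosin gene picked after its values were seen, with higher levels in every CKO tumor than in every WT tumor. The motif is in capitals (RefSeq, GRCm38.p6, printed 5′ to 3′ on the gene's strand). *Cyr61* is read from the minus strand of chr3:145650001-145650100 (-115 to -16 from the start), *Ajuba* from the minus strand of chr14:54577760-54577859 (-198 to -99) and *Tpm1* from the minus strand of chr9:67049214-67049313 (-100 to -1 from a start that lies inside the annotated gene).
Cyr61: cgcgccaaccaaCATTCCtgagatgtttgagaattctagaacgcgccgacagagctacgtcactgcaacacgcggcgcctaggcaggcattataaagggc
Ajuba: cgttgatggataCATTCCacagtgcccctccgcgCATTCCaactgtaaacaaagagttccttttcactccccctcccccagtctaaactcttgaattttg
Tpm1: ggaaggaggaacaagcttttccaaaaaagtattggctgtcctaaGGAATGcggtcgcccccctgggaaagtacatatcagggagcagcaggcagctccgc
A match is a run of letters in a window and was not tested as a binding site.

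*Tpm1* was at 493 to 606 CPM in the CKO tumors and 136 to 409 CPM in the WT tumors. The other genes whose 8 CKO values all lay above the 6 WT values included *Otx1*, a homeobox transcription factor gene. It was at 6.89 to 21.6 CPM in the *Lats1*-CKO tumors and 5.84 to 18.9 CPM in the *Lats2*-CKO tumors, against 0.462 to 4.11 CPM in the 6 WT tumors, a log2 fold change of 2.65 ± 0.51 (adjusted p = 0.131). *Cbr2*, a carbonyl reductase gene, was at 50.3 to 309 CPM and 38.6 to 72.9 CPM, against 24.8 to 31.2 CPM and 8.39 to 36.3 CPM. *Wnt5b*, a Wnt ligand gene picked after its values were seen, was at 69.8 to 168 CPM against 17 to 68.5 CPM over both experiments, with log2 fold changes of 1.13 in the *Lats1* and 1.12 in the *Lats2* experiment. *Cxcl5*, a chemokine gene that attracts neutrophils, was at 1.46 to 9.49 CPM in the *Lats1*-CKO tumors and 0.389 to 3.93 CPM in the *Lats2*-CKO tumors, and at or below 0.249 CPM in every WT tumor. *Ttc39b*, at 112 to 277 CPM against 31.1 to 109 CPM, and the olfactory receptor gene *Olfr284*, at 0.142 to 2.61 CPM against 0 to 0.115 CPM, also had no overlap and were picked after their values were seen. *Olfr284* is near the floor, with a mean of 0.495 CPM. Its lowest CKO tumor, *Lats2*-CKO 7, and its highest WT tumor, WT-PyMT 22, had 3 reads each and were apart only after scaling.

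Other genes with small joint p-values and higher CKO levels in both experiments were of mixed kinds. *Pfn2*, an actin-binding profilin gene, was at 13.1 to 31.1 CPM against 10.4 to 17.6 CPM (log2 fold change 0.76 ± 0.14). *Ncam1*, a neural cell adhesion molecule gene, had 2.30 ± 0.50, *Ceacam10*, of the CEA adhesion family, 2.52 ± 0.54, and *Zak*, a stress-activated MAP kinase kinase kinase gene, 0.75 ± 0.17. *2610528A11Rik* had 1.84 ± 0.34. *Sox11*, a developmental SOX factor gene, was at 9.89 to 60.2 CPM against 0.5 to 1.5 CPM in the *Lats1* experiment, but in the *Lats2* experiment only the library labelled *Lats2*-CKO 1, at 14.1 CPM, and *Lats2*-CKO 8, at 1.31 CPM, lay above the controls. The noncoding RNA gene *H19* and the cartilage collagen gene *Col2a1*, both picked after their values were seen, were at medians of 49.8 CPM against 9.88 CPM and 21.6 CPM against 1.43 CPM, and in each the highest values came from *Lats1*-CKO 27 (862 CPM of *H19*) and *Lats2*-CKO 1 (338 CPM of *Col2a1*). Without *Lats2*-CKO 1 the log2 fold change of *Sox11* went from 4.63 to 3.48, that of *H19* from 4.10 to 3.33 and that of *Col2a1* from 4.74 to 3.55. With all 14 libraries these genes had an adjusted p of 0.126 to 0.158.

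Among the genes lower in both experiments, *Gt(ROSA)26Sor*, the broadly expressed noncoding Rosa26 locus, was at 9.94 to 14.6 CPM in the *Lats1*-CKO tumors against 19.5 to 24.1 CPM in their controls, and at 14.8 to 30.5 CPM in the *Lats2*-CKO tumors against 35.7 to 63.2 CPM, with no overlap in either experiment. The log2 fold change was -1.02 ± 0.18 (adjusted p = 0.119). It overlaps *Thumpd3* in the annotation, and the library kit does not mark strand, so reads of the 2 genes may be mixed. *2010016I18Rik*, which overlaps *Dennd2d*, had -2.18 ± 0.39.

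Several of the other leading lower genes act in lipid or sugar storage. *Gys2*, the liver-type glycogen synthase, was at 0 to 0.444 CPM in the CKO tumors of both experiments, at 2.92 to 5.49 CPM in the controls of the *Lats1* experiment and at 0.604, 29.2 and 17.3 CPM in those of the *Lats2* experiment. Every CKO value lay below every WT value, and the log2 fold change was -6.03 ± 1.05 (adjusted p = 0.119). *Slc2a5*, a fructose transporter gene, was at 0.0389 to 0.247 CPM against 0.284 to 12.3 CPM, and *Paqr9*, a membrane receptor family gene, at 0 to 0.332 CPM against 0.498 to 17.2 CPM, again without overlap. These margins rest on few reads. *Slc2a5* had at most 7 reads in a CKO tumor and at least 8 in a WT tumor, and *Paqr9* at most 7 and at least 14. *Agpat2*, an enzyme of triglyceride synthesis, was at 25 to 37.7 CPM against 39.1 to 258 CPM, and had the smallest larger p of both experiments. *Dgat2*, which makes the final step of triglyceride synthesis, had a log2 fold change of -3.78 ± 0.74, *Pygl*, a glycogen phosphorylase, -2.84 ± 0.53, and *Gm6484*, which the RefSeq table names *Angptl8*, -4.96 ± 0.87. Further genes named by the same rule were *Clstn3* (-4.30 ± 0.81), *Unc5a*, a netrin receptor gene (-3.37 ± 0.61), *Cyp2s1*, a cytochrome P450 gene (-1.72 ± 0.33), and *Ido1*, a tryptophan-degrading enzyme gene (-5.36 ± 1.06).

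These values went along with the levels of adipocyte markers. All 20 white adipocyte markers were lower at an unadjusted p under 0.05, 8 of them in both experiments, with a median log2 fold change of -3.50. The count was also 20 without WT-PyMT 14 and WT-PyMT 22 (877 of all genes), and 11 in carcinomas only (388 of all genes). Of members picked after their values were seen, *Fabp4*, the fatty acid carrier of adipocytes, ranged from 60.4 to 2250 CPM in the WT tumors and from 3.15 to 269 CPM in the CKO tumors. *Adipoq*, the adipocyte hormone adiponectin, ranged from 7.64 to 692 CPM and from 0.0492 to 44.3 CPM, and *Plin1*, which coats lipid droplets, from 3.52 to 189 CPM and from 0 to 15.2 CPM. The mean log2 CPM of the list was 2.97 to 7.91 in the WT tumors (median 5.46) and 0.27 to 4.57 in the CKO tumors (median 2.37), WT-PyMT 1 being lowest among the WT and *Lats1*-CKO 27 highest among the CKO tumors. In whole tumors fewer cells of a type and less RNA per cell cannot be told apart. With the list mean as a covariate, *Agpat2* had a log2 fold change of -0.45 (unadjusted p = 0.363), *Slc2a5* of -1.50 (0.152) and *Pygl* of -1.17 (0.112). Under that covariate *Gys2* had -2.48 (unadjusted p = 0.0047), *Gt(ROSA)26Sor* -1.13 (0.00148), *Cdkn1a* 1.54 (0.0024) and *agouti* 11.80 (8.52e-06). No gene was called by edgeR under it, the smallest adjusted p being 0.147. The list mean itself differed between the groups (median 5.46 in WT and 2.37 in CKO tumors). The level of fat markers and CKO therefore cannot be fully told apart by this covariate. *Dgat2* is itself in the list and so is not tested by this covariate. Without WT-PyMT 1 edgeR called 5 genes higher and 34 lower, and without *Lats1*-CKO 27 it called 3 higher and 30 lower. Why more genes were called without either tumor was not tested.

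**Figure D3:**
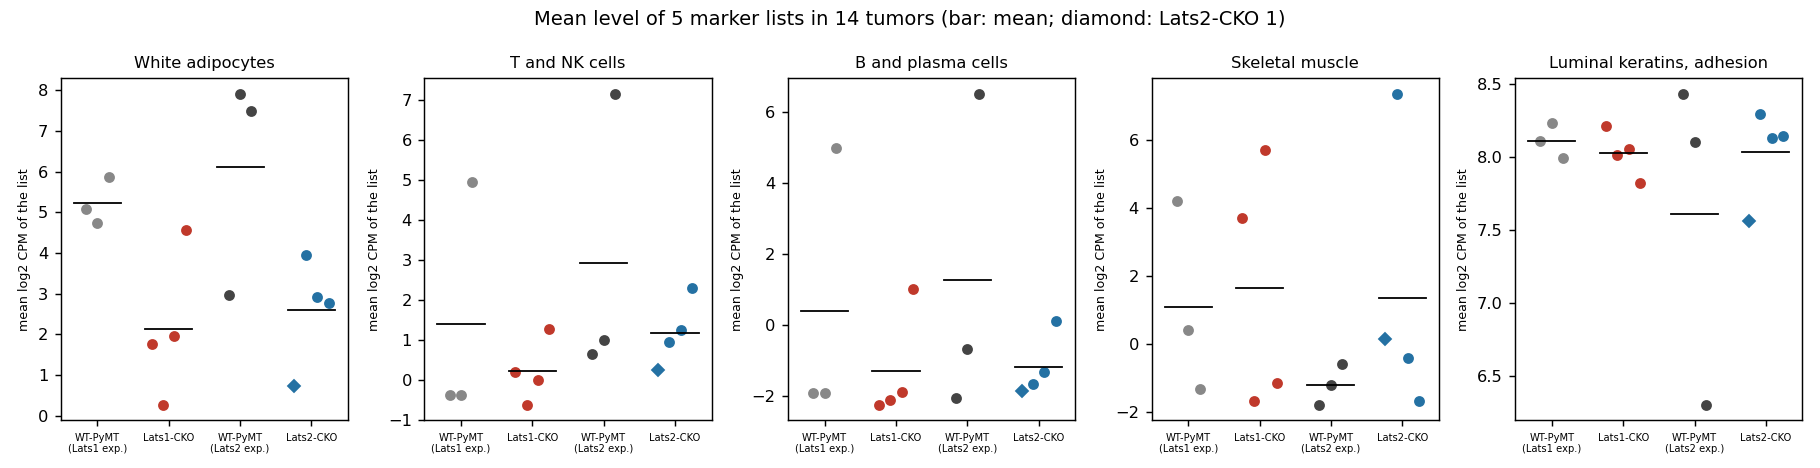
Mean log2 CPM of 5 marker lists in each tumor, by group, with 1 point per tumor, a bar at the group mean and a diamond for *Lats2*-CKO 1. White adipocyte markers have a median of 5.46 in WT and 2.37 in CKO tumors, and the lymphocyte lists are high in 2 WT tumors, 1 in each experiment.

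Fat metabolism genes that are not specific to adipocytes followed the same direction. Of 13 genes of fatty acid synthesis 10 were lower, 5 of them in both experiments (list median -1.15). Of 19 of fatty acid oxidation 9 were lower (median -0.22), and of 25 of the TCA cycle and its feeders 8 were lower (median -0.21). Over all genes 9.70% were lower, and 1.57% in both experiments. *Fasn*, the fatty acid synthase, was at 371 to 840 CPM against 599 to 1430 CPM in the *Lats1* experiment and at 339 to 479 CPM against 520 to 3920 CPM in the *Lats2* experiment, a log2 fold change of -1.94 ± 0.46 (adjusted p = 0.158). *Elovl6*, a fatty acid elongase, had -1.15 ± 0.27, *Mlxipl*, the sugar-sensing factor ChREBP, -1.57 ± 0.39, and *Acacb*, an acetyl-CoA carboxylase, -1.43 ± 0.36. *Pcx*, the pyruvate carboxylase gene, was at 53.1 to 83.3 CPM in every CKO tumor and 83.5 to 519 CPM in every WT tumor, so the groups were apart by a narrow margin. With the adipocyte covariate 1 gene of fatty acid synthesis, 0 of oxidation and 1 of the TCA cycle were lower, where oxidation also had 1 higher. Over all genes tested that covariate also took the lower genes from 1672 to 159 and the higher ones from 970 to 342. The 25 nuclear genes of the respiratory chain had 1 lower and a median of -0.08, and the 23 of cholesterol synthesis had 0 at an unadjusted p under 0.05 by edgeR and 0 called by DESeq2 (median 0.07).

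Of 8 nuclear receptors and coactivators of these programs 3 were lower and 1 was higher by unadjusted p. *Pparg*, the master regulator of fat cells, was at 0.836 to 5.28 CPM against 7.39 to 15 CPM in the *Lats1* experiment, and at 1.03 to 3 CPM against 1.32, 38.7 and 40.2 CPM in the *Lats2* experiment, so WT-PyMT 1 overlapped the CKO tumors. Its log2 fold change was -2.95 ± 0.65, that of *Ppara*, which drives fatty acid oxidation, -1.75 ± 0.43, and that of *Rxrg*, a retinoid X receptor gene, -2.75 ± 0.75 (adjusted p = 0.158 each). These 3 passed the unadjusted threshold in both experiments. The higher one was *Ppard*, a PPAR of broad expression, with 0.27 (unadjusted p = 0.0164). With the adipocyte covariate *Ppara* had a log2 fold change of -0.96 (unadjusted p = 0.139) and *Rxrg* one of -0.10 (0.923), while *Pparg* belongs to the list behind that covariate. *Lipe*, the hormone-sensitive lipase and also of that list, had -2.17 ± 0.48 in the joint comparison.

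Of 10 brown adipocyte genes 8 were lower, with a median of -2.02. *Ucp1*, the uncoupling protein of brown fat, was at 168, 40.5 and 8.46 CPM in the controls of the *Lats1* experiment and at 0.0458, 0.148, 0.251 and 10.5 CPM in the CKO tumors. In the *Lats2* experiment the controls had 8.25, 0.894 and 54.4 CPM and the CKO tumors 0.0345 to 0.0966 CPM. All but *Lats1*-CKO 27 lay below every control. The log2 fold change was -6.13 ± 1.37 (adjusted p = 0.158), and *Ucp1* was the 1 gene called in carcinomas only, where 2 WT tumors remain. *Cidea*, a lipid droplet protein gene, had -2.48 ± 0.53, *Cox8b* -2.27 ± 0.53 and *Elovl3* -5.24 ± 1.19. With the white adipocyte covariate, whose list shares *Cidea* and *Adrb3* with this one, 2 of the 10 were lower (159 of all genes). *Ucp1* was among them at an unadjusted p of 0.00299.

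Lymphocyte genes were lower by count, but the values rest on 2 tumors. Of 15 T and NK cell genes 13 were lower (median -4.14) and of 13 B and plasma cell genes 11 (median -5.85). *Cd3d*, part of the T cell receptor complex, was at 222 CPM in WT-PyMT 14 and 42.1 CPM in WT-PyMT 22, and at 0.0406 to 1.35 CPM in the other 4 WT tumors, against 0.197 to 5.02 CPM in the CKO tumors. *Cd79a*, of the B cell receptor, was at 300 CPM and 78.9 CPM in the same 2 tumors and at most 3.16 CPM elsewhere. Without WT-PyMT 14 and WT-PyMT 22, a choice made after seeing the data, 0 genes of either list were lower, 1 T and NK cell gene was higher, and the medians were 0.78 and 1.44. DESeq2 gave a p-value to only 2 of the 15 and 2 of the 13 genes and called 0 of these. MHC class II genes went from 5 of 10 lower (median -1.09) to 0 of 10 (median 0.17), and *Ccl22*, a chemokine gene of dendritic cells, was at 287 CPM and 42.6 CPM in those 2 tumors and at most 2.02 CPM elsewhere. In WT-PyMT 14 the luminal keratin and adhesion list was also low, at a mean log2 CPM of 6.30 against 7.56 to 8.43 in the other 13 tumors.

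Of 16 endothelial genes 7 were lower (median -0.77), *Cldn5*, a tight junction gene of vessels, at -1.91 ± 0.58 and *Sox17* at -1.20 ± 0.38. The count was 2 without WT-PyMT 14 and WT-PyMT 22 (877 of all genes, list median -0.61). In carcinomas only it was 0 (388 of all genes, list median 0.49). With all 14 tumors 1672 of all genes were lower. Fibroblast genes had 5 of 17 lower and 1 higher. The higher one was *Fbln2*, a matrix glycoprotein gene, at a median of 163 CPM (19.2 to 620 CPM) in the CKO tumors and 61.6 CPM (19.5 to 77 CPM) in the WT tumors, a log2 fold change of 2.19 that was 1.54 without *Lats2*-CKO 1. The fibroblast list median was -0.51 with all 14 tumors. In carcinomas only 0 of its genes were lower and 2 higher (388 and 294 of all genes), with a median of 0.56. With the adipocyte covariate its counts were 0 and 0 (159 and 342 of all genes), with a median of 0.57. Skeletal muscle genes, with a median of 3.54, had high values in single tumors of both genotypes. Their mean log2 CPM was 7.37 in *Lats2*-CKO 7, 5.72 in *Lats1*-CKO 21, 4.21 in WT-PyMT 17 and 3.72 in *Lats1*-CKO 14. It was at most 0.41 in the other tumors. The list had 0 of 15 at an unadjusted p under 0.05 by edgeR and 0 called by DESeq2, which gave a p-value to 2 of them. The 14 luminal keratin and adhesion genes, 11 luminal progenitor genes, 12 milk genes and 8 mast cell genes likewise had 0 in both tools, where DESeq2 gave a p-value to all 14, all 11, 8 and 7 of them.

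Type I interferon genes had 2 of 22 higher and 0 lower (5.63% and 9.70% of all genes), with a median of 1.01. The mean log2 CPM of the list was 3.04 in WT-PyMT 17 and WT-PyMT 20 and 5.20 to 7.29 in the other 4 WT tumors, against 3.50 in *Lats1*-CKO 18 and 6.06 to 7.95 in the other 7 CKO tumors. Without WT-PyMT 14 and WT-PyMT 22 the count was 11 of 22 (633 of all genes). Squamous genes had 4 of 15 higher and 1 lower, and their mean was 4.95 in the adenosquamous *Lats1*-CKO 21 against at most 1.24 in the other 13 tumors. Of 28 genes of DNA replication and mitosis 1 was higher (median 0.19).

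Among hormone-sensing luminal genes 5 of 13 were lower and 1 higher (9.70% and 5.63% of all genes), with a median of -1.08. *Esr1*, the estrogen receptor, was at 2.84 to 8.31 CPM in the *Lats1*-CKO tumors against 10.8 to 17.6 CPM in their controls, and at 10.4 to 15.6 CPM in the *Lats2*-CKO tumors against 13.6 to 37.7 CPM. Its log2 fold change was -1.08 ± 0.27 (adjusted p = 0.158), and the groups overlapped in the *Lats2* experiment. *Tnfsf11*, the RANK ligand that relays progesterone signals, had -2.75 ± 0.91. It had 173, 102 and 125 reads in WT-PyMT 17, 22 and 14. The other WT tumors had 3 to 8 reads, within the 1 to 16 reads of the CKO tumors. Without WT-PyMT 14 and 22 the log2 fold change of *Tnfsf11* was -1.51 (edgeR, unadjusted p = 0.182), and under limma voom it was -1.02 (unadjusted p = 0.395). In carcinomas only the list had 1 lower and 1 higher (388 and 294 of all genes), with a median of -0.06. With the adipocyte covariate it had 0 and 0 (159 and 342 of all genes), with a median of 0.17.

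Hypoxia and glycolysis genes were higher by count, 8 of 19 and 7 of 17, against 5.63% of all genes. Either list had 0 lower, and the medians were 0.45 and 0.24. *Vegfa*, the angiogenic growth factor, was at 109 to 182 CPM against 49 to 66.8 CPM in the *Lats1* experiment, with the groups apart. In the *Lats2* experiment *Vegfa* was at 300 CPM in *Lats2*-CKO 1 but at 39.5 to 67.4 CPM in the other 3 CKO tumors, against 54.8 to 82.8 CPM. *Adm*, the vasodilator adrenomedullin, showed the same division, with 48.9 CPM in *Lats2*-CKO 1 and 1.61 to 4.11 CPM in the other 3. *Egln3*, an oxygen-sensing prolyl hydroxylase gene, had 1.61 ± 0.45, with 652 CPM in *Lats2*-CKO 1 and 84 to 186 CPM in the other 3, *Aldoc*, an aldolase, 1.05 ± 0.29 and *Pgam1* 0.70 ± 0.24. No gene of either list passed in both experiments. Without *Lats2*-CKO 1 the counts were 2 and 2, while the higher genes over all genes went from 970 to 617. With the adipocyte covariate the counts were 0 and 0 (342 of all genes). *Pck1*, the gene of a gluconeogenic enzyme that fat cells also use, had -4.23 ± 1.34.

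Matrix genes differed by list. Collagens had 1 of 21 higher and 0 lower (median 0.11), with a share of higher genes near the 5.63% over all genes. Of 25 laminin and integrin genes 8 were higher and 2 lower (median 0.42), and of 20 metalloproteinase, ADAMTS and TIMP genes 6 were higher and 1 lower (median 0.63). The counts of higher genes in these 2 lists were 8 and 3 without *Lats2*-CKO 1 (617 of all genes), and 1 and 0 with the adipocyte covariate (342). *Itga6*, the laminin-binding integrin of basal cells, was at 470 to 765 CPM against 189 to 498 CPM (log2 fold change 0.74 ± 0.19). *Lats2*-CKO 7 alone among the CKO tumors lay within the WT range. *Mmp13*, a collagenase gene, was higher in both experiments at the unadjusted level (3.19 ± 0.91), and *Lats1*-CKO 21, the adenosquamous tumor, had 118 CPM of it against 1.85 to 13.9 CPM in the other 7 CKO tumors. *Mmp10* had 3.61 ± 1.24, also led by that tumor. *Cxcl1*, a neutrophil chemokine gene, was at 3.01 to 8.72 CPM against 1.39 to 4.34 CPM, and *Nrg4*, of the EGF family, had -1.96 ± 0.51. The log2 fold change of *Nrg4* was -0.34 with the adipocyte covariate (edgeR, unadjusted p = 0.666) and -0.73 in carcinomas only (0.284). Of the same family *Hbegf* had 1.41 ± 0.51 and *Ereg* 3.17, but without *Lats2*-CKO 1, which held 36.1 CPM of *Hbegf* against 3.07 to 5.55 CPM in the other 3 *Lats2*-CKO tumors, these were 0.70 (unadjusted p = 0.052) and 2.03 (0.108).

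**Figure D4:**
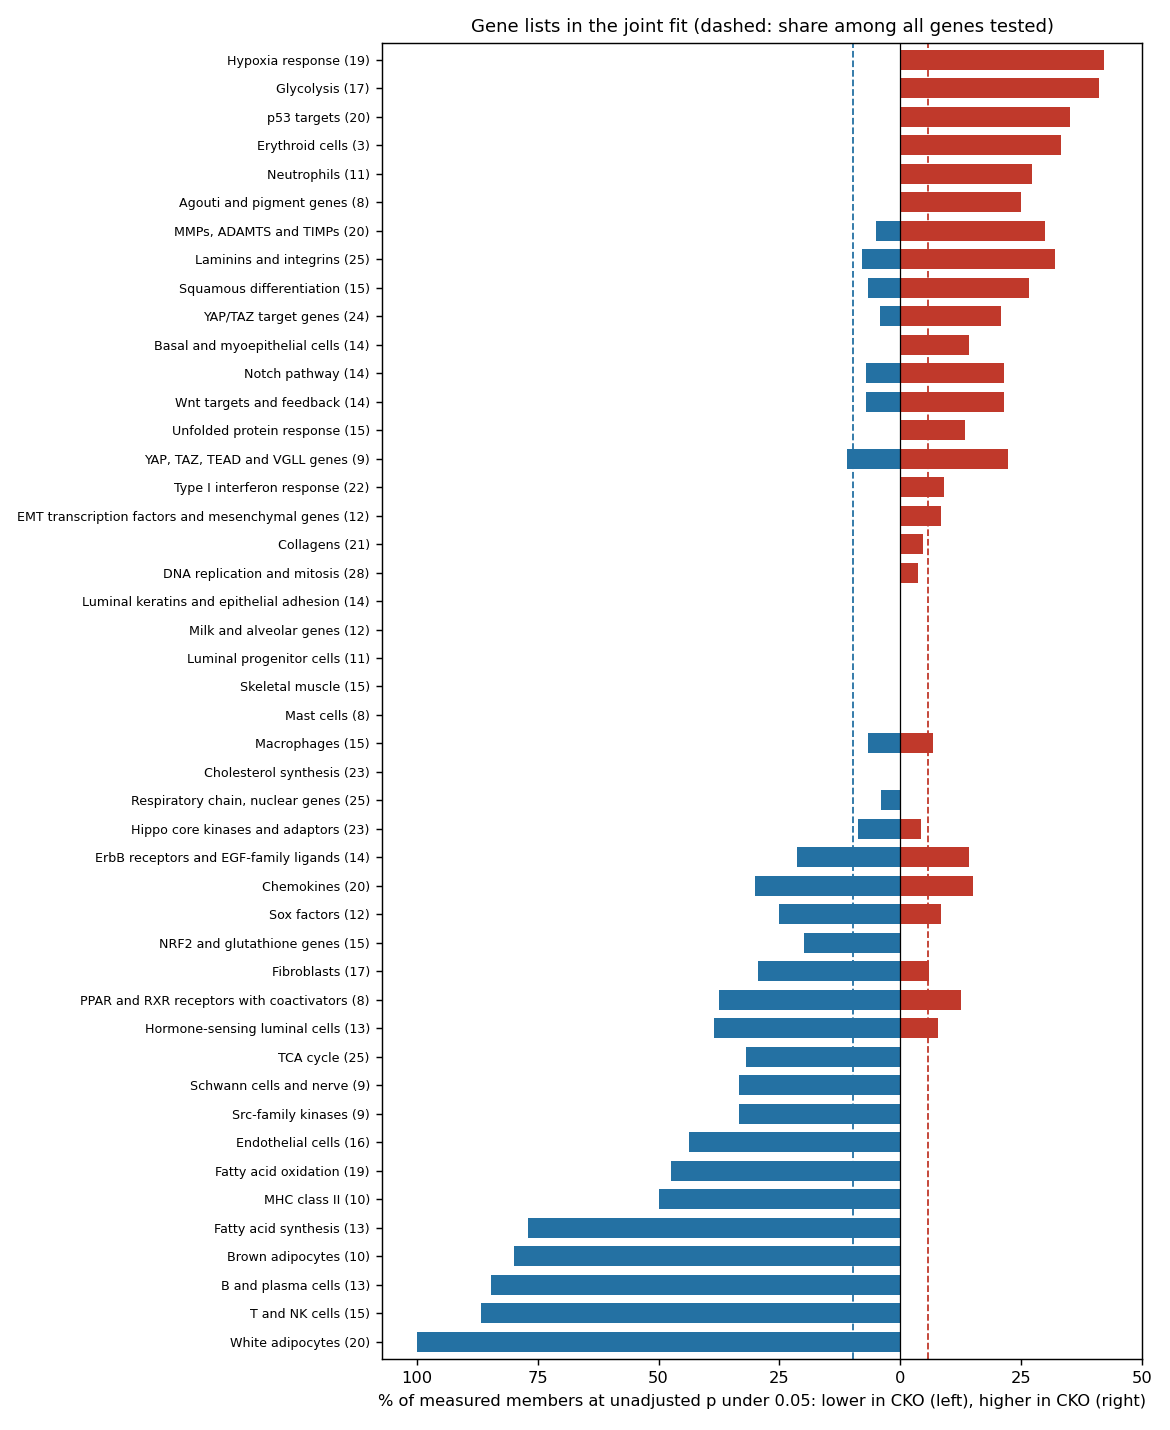
Share of measured members of each of 46 gene lists (number of members in brackets) that were lower (left, blue) or higher (right, red) in CKO tumors at an unadjusted p under 0.05, in percent. Dashed lines are the shares over all genes tested, 9.70% lower and 5.63% higher, and all 20 white adipocyte markers are lower.

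**Figure D5:**
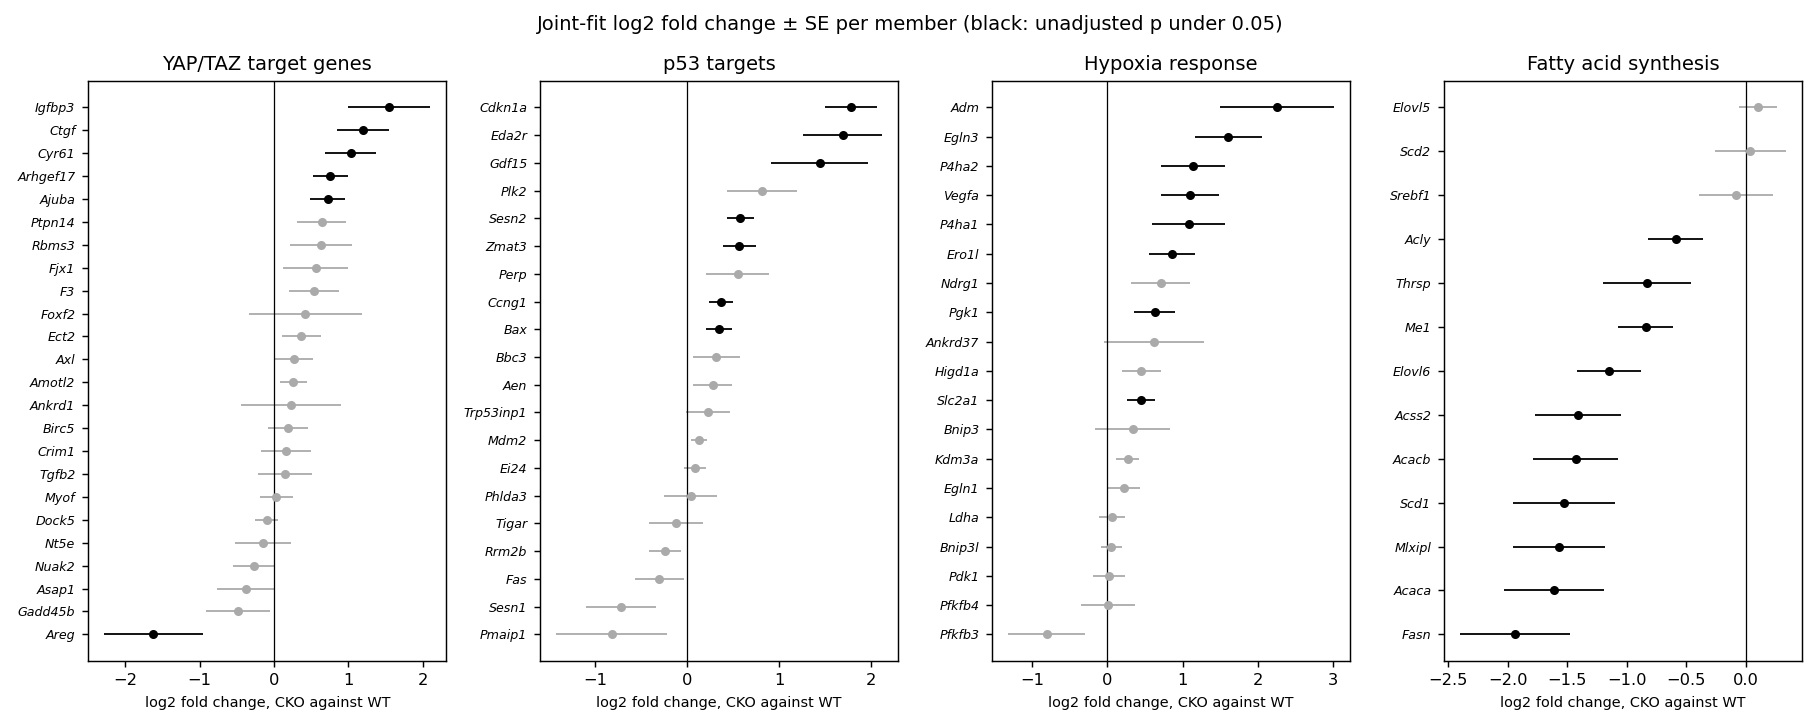
Joint log2 fold change, with its standard error, of every measured member of 4 gene lists, black where the unadjusted p was under 0.05. *Cdkn1a* (1.78) leads the p53 targets, 10 of 13 fatty acid synthesis genes are lower, and the YAP/TAZ targets spread to both sides of 0.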

How the data were processed

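Counts are raw and were deposited by the authors in 1 table per experiment, from single-end reads placed on mm10 by STAR, whose version is not given in the sources used here, and summed over RefSeq genes. The lowest total of any listed gene was 6 reads over the 7 libraries of a table. The kit used does not mark strand. Each library is 1 tumor, named by its genotype and a number in the labels, and each experiment was a batch of 7 libraries. Groups were taken from the labels. The tables of 17763 and 17702 genes were joined on the gene symbol, giving 17232 genes, and no further filter was used. The joint comparison was fitted with edgeR 4.0.16 in R 4.3.3 (TMM, quasi-likelihood F test, experiment and CKO as terms, 11 residual degrees of freedom), each experiment was also fitted alone, and the difference between the experiments was tested in a fit of 4 groups. P-values were adjusted by Benjamini-Hochberg over all genes. Alternatives used DESeq2 1.42.0 and limma 3.58.1 (voom). Of these fits only the joint edgeR fit was run on simulated data. Log2 levels use a prior count of 2.

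Genes were named by rule: both kinases, the 12 in each direction with the smallest p (any past the adjusted threshold first), a mean of at least 1 CPM and the same sign in both experiments, the 10 with the smallest larger p of both, and up to 4 per list. Others are marked as picked after their values were seen. Some genes that the rule names are not reported here. Members, lists and rules were chosen with earlier results of these data known. Symbols of 17175 genes matched the RefSeq table of GRCm38.p6. Of 87 genes followed through the alternatives 12 overlap another tested gene, whose reads cannot be separated.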

Additional observations from a re-analysis of the deposited data

Results flagged for a closer look

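In the group of 4 *Lats2*-CKO tumors the library labelled *Lats2*-CKO 1 stood apart from the other 3 for 3 genes. It had 0.225 CPM of *agouti* against 330 to 787 CPM, 0 CPM of *Cntn4* against 7.4 to 18.7 CPM, and 3.93 CPM of *Cxcl5* against 0.389 to 0.587 CPM. *Lats2*-CKO 7 had 0.19 CPM of *Elovl3* (4 reads) while the other 3 had 0. *Lats1*-CKO 27 had 3.16 CPM of *Cd79a* against 0.0915 to 0.201 CPM in the other *Lats1*-CKO tumors. These are 5 of 174 groups examined by Dixon's criterion, which picks out about 1 in 20 by chance.

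The *Lats1*-CKO and *Lats2*-CKO responses differed by the test of the difference for *Lats1* (log2 difference -1.85, edgeR adjusted p = 0.00195), the gene deleted in one of them.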

How the results depend on the processing

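Under DESeq2 195 genes were called higher and 358 lower, and limma voom with quality weights called 3 and 3, *agouti* not among them (adjusted p = 0.303). The mean of both changes in a fit of 4 groups left 1 higher and called 3 lower, and RLE size factors, filterByExpr, a robust fit and no experiment term each gave 1 and 0. A covariate for histology, for the adipocyte mean, for the lymphocyte mean or for both means left 0 called, as did omitting WT-PyMT 14 and 22 (this and the covariate for both means were chosen after seeing the data). Carcinomas only gave 0 higher and 1 lower, and leaving out *Lats2*-CKO 1 with WT-PyMT 14 gave 2 and 1. Leaving out 1 library at a time gave 0 to 5 higher, the most without WT-PyMT 1, and 0 to 34 lower. Genes past the unadjusted test in both experiments numbered 98 higher under DESeq2 and 82 higher and 172 lower in the 4-group fit, and ranged from 29 to 82 higher and from 83 to 382 lower over the libraries left out. The fewest lower genes, 83, came without WT-PyMT 22, and the causes of these shifts were not tested.

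Of 2436 log2 fold changes of single genes over all alternatives 16 turned sign. *Lats2* had 0.16 under voom and 0.14 in carcinomas only. *Cd3d* had 0.45 under voom, 0.20 with the lymphocyte covariate, 0.56 in carcinomas and 1.19 without WT-PyMT 14 and 22, and *Cd79a* had 0.29, 0.97 and 1.42 in the last 3 of these and 0.45 with both covariates. With the adipocyte covariate, alone and with the lymphocyte one, *Lipe* had 0.04 and 0.04, *Adipoq* 0.37 and 0.40, and *Fabp4* 0.08 and 0.09. Apart from *Lats2*, these genes belong to the lists behind the covariates, so the values with a covariate do not test them. The values of *Cd3d* under voom come from a fit with no covariate. So do those of *Cd3d* and *Cd79a* in carcinomas and without WT-PyMT 14 and 22. No paired analysis was run because the labels do not give the litter of each tumor.

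With 3 and 4 tumors per group, 2 WT tumors rich in lymphocytes, and more carcinomas among the CKO tumors, the spread limits what can be called, and a gene that misses the threshold is not shown to be equal.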
